A study of Mus musculus with 29 samples.

Results

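The 45 genes described here drive or restrain the cell division cycle and the extra rounds of DNA replication by which cells become polyploid. They were chosen by name for their known roles, with earlier results of these data known, and each was measured by the brightest of its array probes, out of 27670 named genes on the array. They fall into 5 roles: 12 genes of DNA replication, 7 genes of entry into S phase, 16 genes of mitosis, 5 D cyclins and their kinases, and 5 inhibitors of cyclin-dependent kinases. All 45 had a probe, 24 of them 1 probe and 21 several, and 43 were well above background on all 29 arrays. Cdk2 was above background on 27 arrays. Cdkn2a, which encodes p16 and p19Arf, was above background on 0 arrays, so it entered no test and 44 members were tested.

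RNA came from the uterus of female CD-1 mice, an outbred stock, at 4 gestational days, and the study asked how neonatal exposure to genistein, an oestrogenic isoflavone of soy, alters the uterus of early pregnancy. GEN mice had received genistein, 50 mg/kg/day, over postnatal days 1 to 5, and CON mice the corn oil vehicle alone. Each group is given as gestational day and exposure: GD1.5 GEN with 4 arrays and GD1.5 CON with 3, GD3.5 GEN with 3 and GD3.5 CON with 3, GD4.5 GEN with 4 and GD4.5 CON with 4, and GD5.5 GEN with 4 and GD5.5 CON with 4. The labels do not say whether the arrays of a group came from separate animals, so p-values measure only the spread between these samples.

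In a dividing cell, D cyclins with Cdk4 or Cdk6 and then E cyclins with Cdk2 release the E2F factors, the MCM helicase loaded by Cdc6 and Cdt1 opens the DNA, and cyclin B with Cdk1 starts mitosis. Around implantation, stromal cells of the mouse uterus divide and differentiate into decidual cells, many of which then replicate their DNA without dividing and become polyploid. Cyclin D3, Cdk6 and the inhibitor p21, encoded by Cdkn1a, have been tied to that switch in the mouse, and the repressors E2f7 and E2f8 to polyploidy of trophoblast giant cells and hepatocytes. DNA content was not measured here.

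Promoters of cycle genes are known for short shared motifs, so the promoter sequences of 8 members with different roles are shown. RefSeq promoters on GRCm38.p6 were matched for 36 members, with 42 start sites in all, and Mcm4, Gmnn, Ccne2, Ccna2, Aurkb, Kif20a, Ccnd1, Ccnd2 and Cdkn1c had no match used. Each sequence is the 150 bases upstream of an annotated start, read 5′ to 3′ on the strand of the gene. Capitals mark matches on either strand to 4 E2F letter strings of 8 bases (TTTGGCGC, TTTCCCGC, TTTGCCGC and TTTCGCGC), to the cell cycle homology region, or CHR (TTTGAA), and to the CCAAT box.
Mcm6, chr1:128359706-128359855, minus strand: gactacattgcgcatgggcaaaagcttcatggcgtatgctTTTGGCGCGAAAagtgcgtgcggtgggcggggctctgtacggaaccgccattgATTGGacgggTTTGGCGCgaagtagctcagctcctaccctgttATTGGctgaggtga
Mcm5, chr8:75109359-75109508, plus strand: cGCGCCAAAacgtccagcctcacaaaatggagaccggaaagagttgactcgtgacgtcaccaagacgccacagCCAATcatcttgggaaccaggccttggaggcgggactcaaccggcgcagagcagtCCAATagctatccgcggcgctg
Rrm2, chr12:24708104-24708253, plus strand: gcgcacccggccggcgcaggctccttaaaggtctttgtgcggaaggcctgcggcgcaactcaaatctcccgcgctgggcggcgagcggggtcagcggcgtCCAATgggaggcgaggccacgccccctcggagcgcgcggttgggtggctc
E2f8, chr7:48881597-48881746, minus strand: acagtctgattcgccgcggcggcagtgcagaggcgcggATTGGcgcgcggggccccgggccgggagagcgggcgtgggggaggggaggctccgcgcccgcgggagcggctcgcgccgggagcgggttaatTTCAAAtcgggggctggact
Cdk1, chr10:69352913-69353062, minus strand: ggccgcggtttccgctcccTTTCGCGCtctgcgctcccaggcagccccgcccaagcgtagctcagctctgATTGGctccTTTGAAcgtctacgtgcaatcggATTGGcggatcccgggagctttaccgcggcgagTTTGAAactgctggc
Ccnb1, chr13:100786487-100786636, minus strand: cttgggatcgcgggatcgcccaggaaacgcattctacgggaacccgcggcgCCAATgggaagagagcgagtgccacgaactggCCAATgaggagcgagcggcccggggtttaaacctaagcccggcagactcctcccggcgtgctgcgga
Cdc20, chr4:118437344-118437493, minus strand: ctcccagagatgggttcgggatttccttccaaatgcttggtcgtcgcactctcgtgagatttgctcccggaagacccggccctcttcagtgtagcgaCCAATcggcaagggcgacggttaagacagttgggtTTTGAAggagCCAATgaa
Ccnd3, chr17:47593317-47593466, plus strand: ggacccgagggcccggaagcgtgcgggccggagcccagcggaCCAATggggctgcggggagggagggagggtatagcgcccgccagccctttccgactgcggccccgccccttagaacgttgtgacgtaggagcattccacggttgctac
The Mcm6 and Mcm5 sequences, of 2 subunits of the helicase, pair E2F strings with CCAAT boxes, and in Mcm6 a pair of E2F strings overlap on opposite strands within TTTGGCGCGAAA. Rrm2, the member with the largest difference between days, has a CCAAT box and no E2F string in this window. The sequences of E2f8, Cdk1 and Cdc20 hold CHR and CCAAT letters together, and that of Ccnb1 holds 2 CCAAT boxes. Over the 250 bases upstream of each start, 1 or more of the E2F strings stood in 8 of the 42 member windows (19.0%) against 1.86% of all 32851 RefSeq windows. Those 8 windows belonged to Cdc6, Mcm5, Mcm6, Mcm7, Cdk2, E2f7, Cdk1 and Cdkn2a. CCAAT stood in 27 of the 42 member windows (64.3%) against 33.8% of all windows, and in 12 of the 13 windows of mitosis genes. CHR letters stood in 9 of the member windows (21.4%) against 16.0% of all windows, and 6 of those 9 were windows of mitosis genes.

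Signals are given as log2 of the processed intensity minus the log2 of the 75th percentile of the array, a scale on which 1 unit is a doubling of signal; levels of different genes are not compared on it. Slides 1 to 4 carried the 13 arrays of GD1.5 and GD3.5, and slides 5 to 8 the 16 arrays of GD4.5 and GD5.5. Their scans were separate, so a change between GD3.5 and GD4.5 cannot be told apart from slide and scan and was not tested. GD3.5 CON replicate 3 was the only array of slide 4, which had a scan of its own. The 75th percentile lay between 1490 and 1840 intensity units on slides 1 to 4 and between 734 and 995 on slides 5 to 8, and 65.5% to 80.9% of probes were well above background on any array. The 6 markers each of uterine stroma, smooth muscle and luminal epithelium were above background in all 8 groups. In these bulk samples, fewer cells of a type and less RNA per cell cannot be told apart.

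The plot of role medians shows the levels of each role by array. For the 16 mitosis genes, the median distance of a gene from its own mean over the 29 arrays averaged -1.99 ± 0.23 at GD1.5, -1.28 ± 0.39 at GD3.5, 0.65 ± 0.98 at GD4.5 and 1.95 ± 0.28 at GD5.5 in GEN uteri. In CON uteri it averaged -2.16 ± 0.61, -0.97 ± 0.69, 0.69 ± 0.47 and 2.04 ± 0.13 on the same days (SD over 3 or 4 arrays). The D cyclins and their kinases ranged less, with averages between -0.42 ± 0.17 and 0.59 ± 0.13 in GEN uteri at GD3.5 and GD5.5. Over all members the spread inside a group was widest at GD4.5, where the median SD of a member was 0.86 in GEN uteri and 0.50 in CON uteri. At GD5.5 it was 0.32 in GEN uteri and 0.19 in CON uteri. In CON uteri GD3.5 was close, at 0.47. The median SD of the mitosis genes in CON uteri was lower at GD4.5 (0.46) than at GD1.5 (0.65) or GD3.5 (0.67). The spread at GD4.5 lay in whole arrays. GD4.5 GEN replicate 4 was the lowest of its group for 37 of the 45 members and replicate 2 the highest for 32. GD4.5 CON replicate 3 was the lowest for 36 and replicate 2 the highest for 31.

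**Figure D1:**
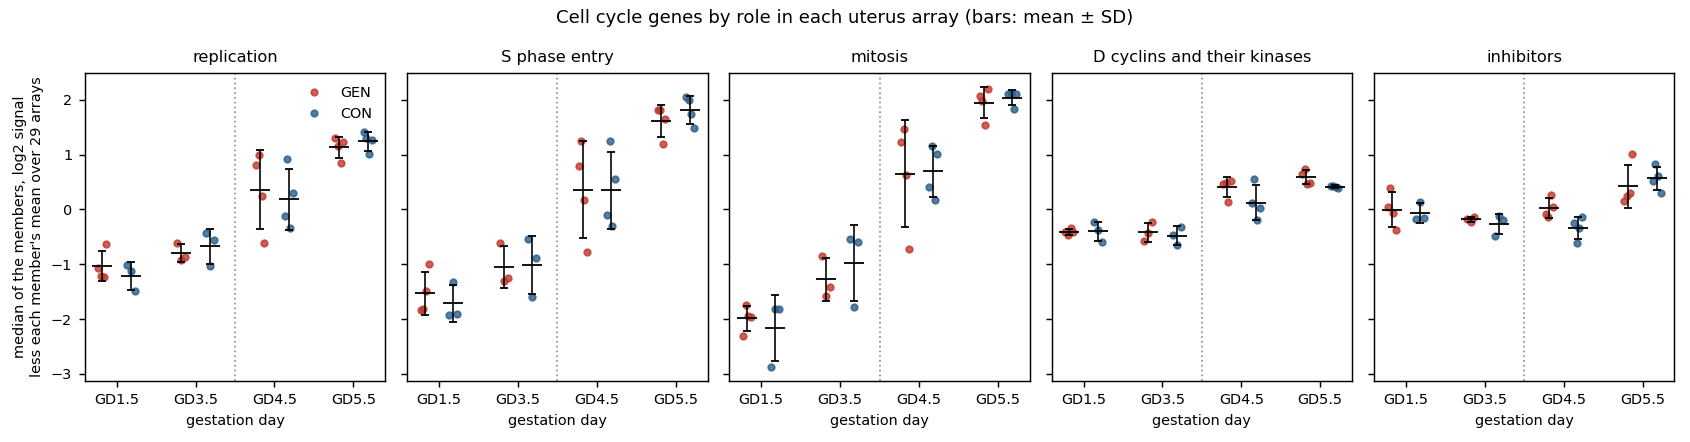
Median over the members of a role of the log2 signal of each member minus its own mean over 29 arrays (vertical axis), by group (horizontal axis), 1 point per array, with GEN left of CON on each day. Replication, S phase entry and mitosis genes have their lowest group means at GD1.5 and their highest at GD5.5, on slides that were not compared between GD3.5 and GD4.5, and for these 3 roles the GD4.5 GEN arrays have the largest SD.

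The first question of the design is whether neonatal genistein altered these genes on a given day. No member was called on any of the 4 days at an adjusted p under 0.05 with limma and Benjamini-Hochberg adjustment over all genes tested, where 0.0975% of 20504 genes were called at GD1.5, 0.127% of 20401 at GD3.5, 0.12% of 21620 at GD4.5 and 0% of 20828 at GD5.5. At an unadjusted p under 0.05 there were 0, 1, 2 and 2 members on those days, against 6.3%, 5.69%, 9.66% and 5.51% of all genes tested. The median log2 difference of the 45 members, GEN minus CON, was 0.14 at GD1.5, -0.17 at GD3.5, 0.07 at GD4.5 and -0.08 at GD5.5, beside medians over all genes tested of -0.01, -0.03, -0.04 and -0.01. Leaving out 1 array moved these medians to between 0.027 and 0.28 at GD1.5, between -0.40 and 0.0041 at GD3.5, between -0.12 and 0.44 at GD4.5 and between -0.14 and 0.023 at GD5.5. The sign turned without CON replicate 1 at GD3.5 (0.0041), without CON replicate 1 (-0.0042), CON replicate 3 (-0.08), GEN replicate 1 (-0.06) or GEN replicate 2 (-0.12) at GD4.5, and without GEN replicate 3 at GD5.5 (0.023). The 95% confidence interval of the difference lay inside 1 log2 unit either way for 29, 23, 35 and 35 of the 44 tested members. For the others a doubling or halving was not excluded. Each gene had 1 estimate of its spread, shared by all 8 groups. At GD4.5 the median SD of a member was 0.86 in GEN uteri and 0.50 in CON uteri, against 0.32 and 0.19 at GD5.5. The GD4.5 intervals may therefore be too narrow, and their count does not settle for which members a doubling or halving was excluded. The plot of GEN minus CON by day shows these intervals around 0 on both sides.

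**Figure D2:**
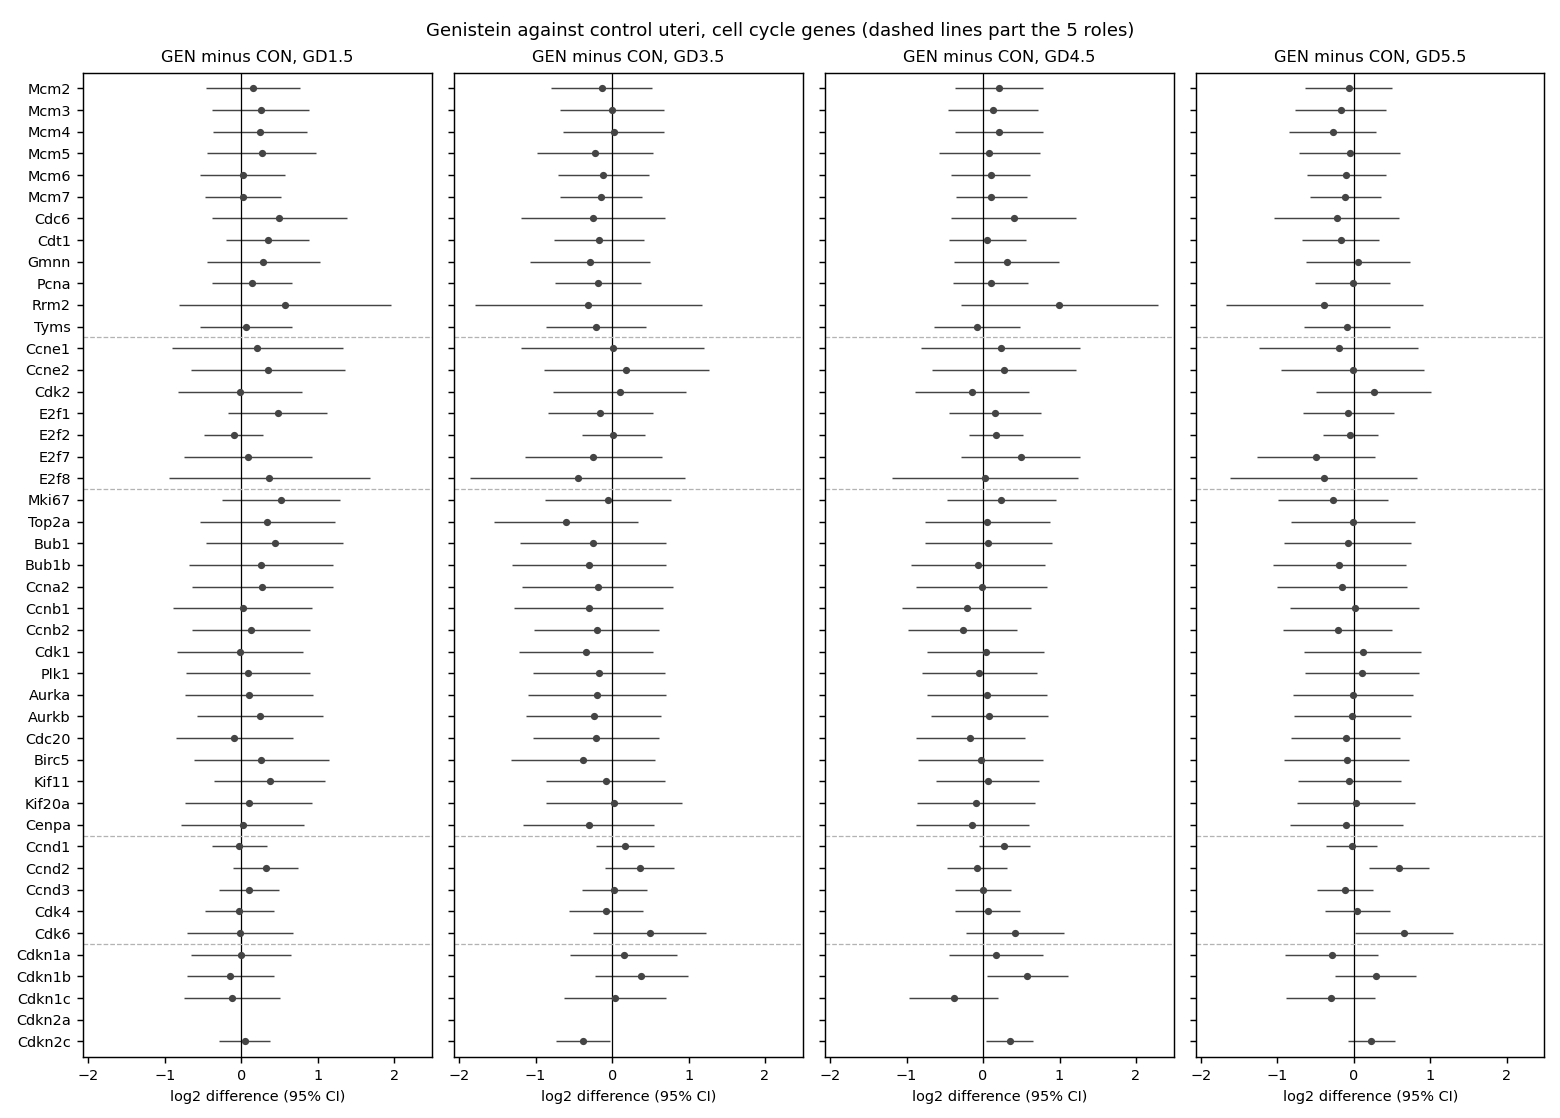
Log2 difference, GEN minus CON, of each member (rows, by role) with its 95% confidence interval from limma, in 1 panel per gestational day; Cdkn2a was below background and its row is empty. No difference was called, and the intervals are widest for Rrm2, whose difference at GD4.5 was 1.0 with an interval of -0.29 to 2.28.

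The 5 unadjusted differences were in D cyclins, their kinases and inhibitors. Ccnd2 encodes cyclin D2, a regulator of the early G1 phase. At GD5.5 it stood at 1.06, 1.76, 2.10 and 1.14 in GEN uteri, against 0.62, 0.69, 1.32 and 1.07 in CON uteri. The 2 groups overlapped, since 2 GEN arrays lay within the CON range. The difference was 0.59 (SE 0.19, 95% interval 0.20 to 0.98, adjusted p = 0.555) and was positive on all 3 slides that carried both groups, with within-slide differences of 0.07 to 1.07. It was called under 1 alternative, normexp background correction, which called many genes on that day. Cdk6, a partner kinase of the D cyclins, stood at 2.33, 2.49, 2.04 and 2.92 in GEN uteri at GD5.5, against 1.99, 2.11, 0.99 and 2.08 in CON uteri, where replicate 3 was low and GEN replicate 3 lay below CON replicates 2 and 4. Its difference was 0.65 (95% interval 0.01 to 1.29, adjusted p = 0.884), and it was positive on all 3 slides. At GD3.5, Ccnd2 and Cdk6 were the 2 members whose arrays did not overlap, both higher in GEN uteri by 0.36 and 0.49, in a comparison where the arrays of 20.3% of all genes did not overlap. Both adjusted p-values there rounded to 1.

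Among the inhibitors, Cdkn1b, which encodes p27, differed by 0.58 at GD4.5 (95% interval 0.05 to 1.11, adjusted p = 0.453). Its within-slide differences there were -0.09 to 1.13. At GD5.5 its 4 GEN arrays lay above the 4 CON arrays by a mean of 0.29, the one member without overlap on that day, where 1.72% of all genes had none. The lowest GEN value there, 0.1008, and the highest CON value, 0.1003, nearly met. Cdkn2c, which encodes the Cdk4 and Cdk6 inhibitor p18, differed by -0.38 at GD3.5 (adjusted p = 0.816) and by 0.35 at GD4.5 (adjusted p = 0.43), with opposite signs. Cdt1, the helicase loader, was the 1 member without overlap at GD1.5, 0.35 higher in GEN uteri, where 8.33% of all genes had no overlap, and at GD4.5 no member stood apart, where 4.14% of all genes did. The 4 days in order had 2, 2, 3 and 3 slides that carried both groups. On all of those slides, 7, 7, 4 and 6 of the 45 members were higher in GEN uteri, and 4, 4, 0 and 7 were lower. None of these differences passed the adjusted threshold, whether with or without the replicate number as a block. Shares over all genes were not computed for counts within slides, here or below.

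The other 72 cell cycle genes of the lists (22 of replication, 26 of mitosis and 24 regulators, all measured) also held 0 calls between GEN and CON on each day. Markers of other cells had differences beside these comparisons, none of them called: the 5 gland epithelium markers had median differences of -1.84 at GD1.5, -2.39 at GD3.5, -2.46 at GD4.5 and -0.86 at GD5.5. At GD4.5 they came to a summed signal of 1.86 to 20.8 times the 75th percentile in GEN uteri, against 21.3 to 127 in CON uteri. The summed signal of the 6 decidual markers at GD5.5, mostly that of Dcn, was 124 to 167 in GEN uteri, against 101 to 150 in CON uteri, with a median difference of -1.0. All 5 gland markers and all 6 decidual markers were above background in these groups, and their part in the members' differences was not tested.

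The second question is how the genes changed over the last day sampled, between GD4.5 and GD5.5. In both exposures most members were higher at GD5.5. In GEN uteri 25 of the 44 tested members were called, 24 that rose and 1 that fell, where 22.4% of 20938 genes were called, 13.2% rising and 9.21% falling. In CON uteri 37 of the 44 tested members were called, 36 that rose and 1 that fell, where 30.9% of 21677 genes were called, 16.5% rising and 14.4% falling. The median log2 difference of the 45 members was 0.98 in GEN uteri and 1.12 in CON uteri, against 0.09 in GEN uteri and 0.02 in CON uteri for all genes tested. At an unadjusted p under 0.05 there were 36 of the 44 tested members in GEN uteri and 40 of the 44 in CON uteri, against 36.5% and 40.1% of all genes tested. All 25 members called in GEN uteri were among the 37 called in CON uteri, of which they were 67.6%, and 8 members were called in neither. At GD5.5 the arrays of 15 members lay wholly above those of GD4.5 in GEN uteri and the arrays of 30 in CON uteri, in comparisons where that held for 8.27% and 14.2% of all genes; Cdkn2a, below background, is among both counts.

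Replication genes rose, 5 of 12 in GEN uteri and 12 of 12 in CON uteri. Rrm2, the subunit of ribonucleotide reductase that limits the supply of DNA precursors in S phase, had the largest difference. Rrm2 on the GEN arrays stood at 4.76, 4.30, 3.55 and 4.99 at GD5.5, against 2.84, 3.51, 0.55 and -0.31 at GD4.5. CON uteri had Rrm2 signals of 4.99, 4.95, 4.49 and 4.73 at GD5.5, against -0.10, 2.37, -0.48 and 0.81 at GD4.5. The GD5.5 arrays lay above every GD4.5 array in both exposures, and the GD4.5 values spanned more than 2 units in each. The differences were 2.75 in GEN uteri (6.75-fold, SE 0.62, adjusted p = 0.00422) and 4.14 in CON uteri (17.6-fold, SE 0.62, adjusted p = 4.37e-05). Gmnn encodes geminin, which blocks Cdt1 after a licence has been used. Gmnn in GEN uteri stood at 4.42, 3.89, 3.6 and 4.08 at GD5.5, against 3.42, 3.27, 2.47 and 1.53 at GD4.5. The Gmnn values of CON uteri were 4.11, 4.12, 3.65 and 3.89 at GD5.5, against 2.04, 3.05, 1.67 and 2.69 at GD4.5. It also showed no overlap in either exposure, and rose by 1.32 in GEN uteri (adjusted p = 0.00798) and 1.58 in CON uteri (adjusted p = 0.00105).

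Tyms, thymidylate synthase, makes dTMP for DNA synthesis. In GEN uteri, Tyms stood at 4.34, 4.11, 3.67 and 4.00 at GD5.5, against 3.63, 3.62, 2.92 and 1.86 at GD4.5. On CON arrays Tyms stood at 4.19, 4.21, 3.95 and 4.10 at GD5.5, against 2.76, 3.53, 2.73 and 3.31 at GD4.5. Both exposures again had no overlap, with rises of 1.02 in GEN uteri and 1.03 in CON uteri. Another Tyms probe differed by -0.07 in GEN uteri and 0.40 in CON uteri. It was above background on 7 of 8 GEN and 8 of 8 CON arrays. The third Tyms probe, above background on every array compared, differed by 0.96 in GEN uteri and 1.02 in CON uteri. Mcm5 is a subunit of the replicative helicase. Mcm5 on the GEN arrays stood at 4.57, 4.52, 4.05 and 4.44 at GD5.5, against 3.86, 4.29, 3.21 and 2.31 at GD4.5. CON uteri had Mcm5 signals of 4.65, 4.5, 4.22 and 4.42 at GD5.5, against 3.04, 4.14, 2.71 and 3.44 at GD4.5. In GEN uteri the GD5.5 replicate 3 lay below GD4.5 replicate 2, so the groups overlapped there, and they did not in CON uteri. Mcm5 rose by 0.98 in GEN uteri (adjusted p = 0.0318) and 1.12 in CON uteri (adjusted p = 0.0104). Cdc6, which loads the helicase, was called in CON uteri and not in GEN uteri. Cdc6 in GEN uteri stood at -0.20, -0.24, -0.90 and -0.31 at GD5.5, against -0.56, -0.14, -1.47 and -2.65 at GD4.5. The Cdc6 values of CON uteri were -0.03, -0.37, -0.25 and -0.09 at GD5.5, against -2.01, -0.41, -2.33 and -1.66 at GD4.5. In GEN uteri GD4.5 replicate 2 lay above all 4 GD5.5 arrays and the difference of 0.79 had an adjusted p of 0.148, whereas the difference of 1.42 in CON uteri had an adjusted p of 0.00864. The fifth replication gene called in GEN uteri was Cdt1 (0.76 in GEN uteri and 0.99 in CON uteri). The other 5 MCM subunits and Pcna, the sliding clamp, differed by 0.55 to 0.72 in GEN uteri, not called, and rose by 0.68 to 1.05 in CON uteri.

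**Figure D3:**
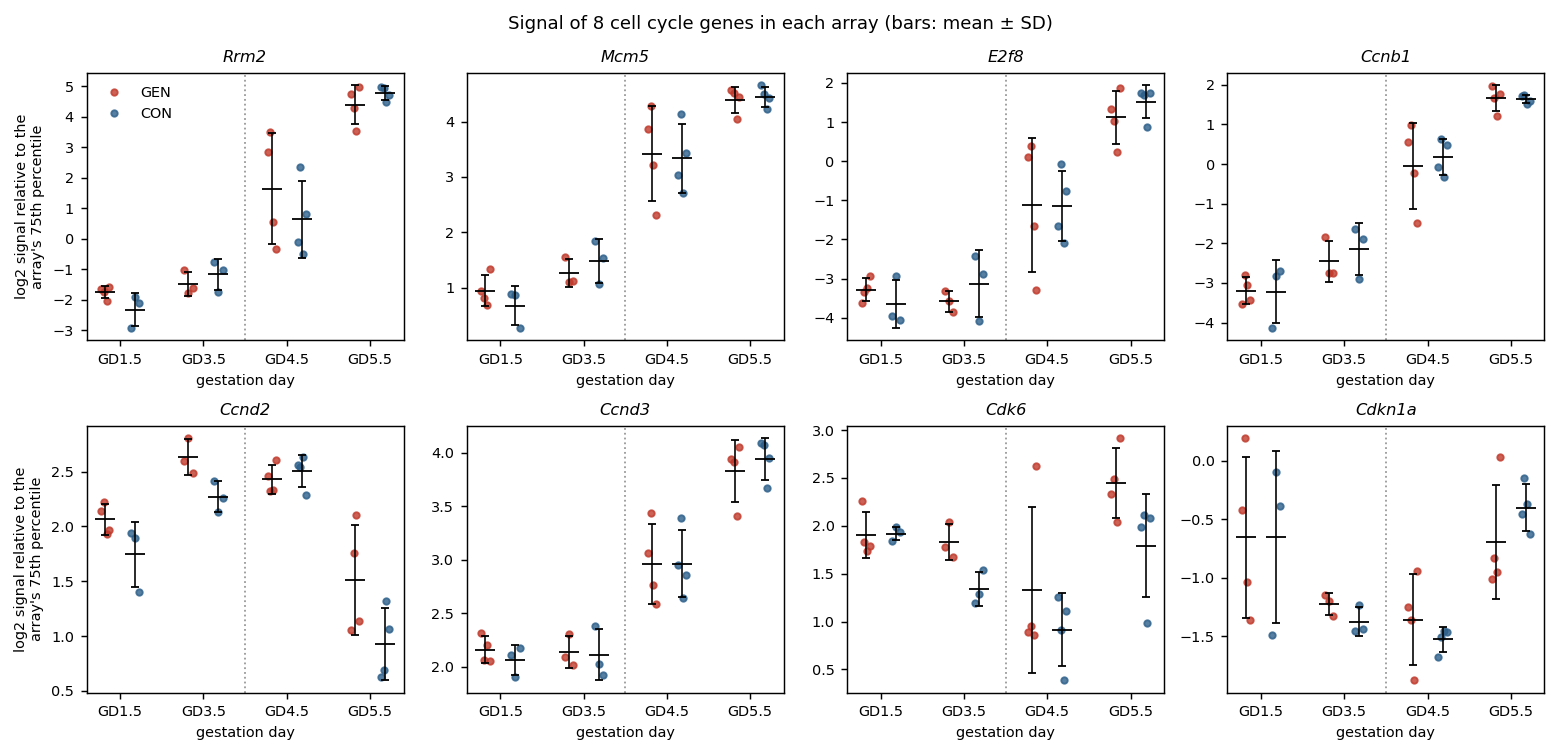
Log2 signal relative to the 75th percentile of the array (vertical axis) for Rrm2, Mcm5, E2f8, Ccnb1, Ccnd2, Ccnd3, Cdk6 and Cdkn1a, 1 point per array, with GEN left of CON on each day (horizontal axis); the dotted line parts the slides that were not compared. Ccnd2 is lower at GD5.5 than at GD4.5 in both exposures, and the others have higher means at GD5.5.

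Of the genes of S phase entry, the atypical E2F repressors E2f7 and E2f8 rose in both exposures. In GEN uteri, E2f7 stood at 0.92, 0.94, 0.30 and 2.07 at GD5.5, against -0.12, 0.36, -0.76 and -1.66 at GD4.5. On CON arrays E2f7 stood at 1.75, 1.54, 1.29 and 1.65 at GD5.5, against -1.42, -0.47, -1.56 and -0.70 at GD4.5. The arrays did not overlap in CON uteri, and in GEN uteri GD5.5 replicate 3 lay just below GD4.5 replicate 2. E2f7 rose by 1.61 in GEN uteri (SE 0.37, adjusted p = 0.00533) and by 2.59 in CON uteri (SE 0.38, adjusted p = 2.97e-05). E2f8 on the GEN arrays stood at 1.33, 1.03, 0.24 and 1.87 at GD5.5, against 0.12, 0.38, -1.66 and -3.30 at GD4.5. CON uteri had E2f8 signals of 1.75, 1.70, 0.88 and 1.73 at GD5.5, against -1.64, -0.07, -2.08 and -0.76 at GD4.5. E2f8 had the same overlap as E2f7, by 1 array pair in GEN uteri and by none in CON uteri. It rose by 2.23 in GEN uteri (adjusted p = 0.0107) and by 2.66 in CON uteri (adjusted p = 0.00166). Ccne1 encodes cyclin E1, the partner of Cdk2. Ccne1 in GEN uteri stood at 3.96, 3.81, 3.24 and 3.81 at GD5.5, against 3.5, 3.57, 1.87 and 0.56 at GD4.5. The Ccne1 values of CON uteri were 4.02, 3.94, 3.76 and 3.90 at GD5.5, against 1.68, 3.52, 1.04 and 2.34 at GD4.5. It rose by 1.76 in CON uteri (adjusted p = 0.0101), where the groups did not overlap, while the difference of 1.33 in GEN uteri, with overlap, had an adjusted p of 0.0582. Ccne2, cyclin E2, rose by 1.31 in CON uteri and differed by 1.02 in GEN uteri (adjusted p = 0.104). Cdk2, E2f1 and E2f2 were called in neither exposure, with E2f1, an activator, at 0.53 in GEN uteri (adjusted p = 0.189) and 0.75 in CON uteri (adjusted p = 0.0513).

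Mitosis genes rose, 14 of 16 in GEN uteri and 15 of 16 in CON uteri, and all 16 had a positive difference in each, as did 57.6% of all genes in GEN uteri and 52.1% in CON uteri. In CON uteri the 4 GD5.5 arrays lay above the 4 GD4.5 arrays for all 16 genes, and in GEN uteri for 10. Ccnb1 encodes cyclin B1, which with Cdk1 drives entry into mitosis. In GEN uteri, Ccnb1 stood at 1.98, 1.67, 1.21 and 1.78 at GD5.5, against 0.55, 0.98, -0.23 and -1.48 at GD4.5. On CON arrays Ccnb1 stood at 1.71, 1.75, 1.53 and 1.60 at GD5.5, against -0.08, 0.63, -0.34 and 0.47 at GD4.5. It rose by 1.70 in GEN uteri (adjusted p = 0.00617) and 1.48 in CON uteri (adjusted p = 0.00822), without overlap in either. Plk1 encodes a kinase of the spindle and of mitotic entry. Plk1 on the GEN arrays stood at 4.5, 4.60, 3.80 and 4.54 at GD5.5, against 3.22, 3.69, 2.48 and 1.34 at GD4.5. CON uteri had Plk1 signals of 4.26, 4.24, 4.16 and 4.36 at GD5.5, against 2.31, 3.20, 2.36 and 3.05 at GD4.5. The arrays did not overlap in either exposure, and the rise was 1.68 in GEN uteri (adjusted p = 0.00311) and 1.52 in CON uteri (adjusted p = 0.00293).

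Aurka, a kinase of spindle poles, and Birc5, survivin of the chromosomal passenger complex, followed. Aurka in GEN uteri stood at 4.69, 4.48, 4.06 and 4.82 at GD5.5, against 3.69, 4.01, 2.81 and 1.51 at GD4.5. The Aurka values of CON uteri were 4.63, 4.55, 4.30 and 4.61 at GD5.5, against 2.54, 3.49, 2.41 and 3.36 at GD4.5. Neither exposure had overlapping arrays, and the rises were 1.51 in GEN uteri and 1.57 in CON uteri. In GEN uteri, Birc5 stood at 5.64, 5.31, 4.93 and 5.60 at GD5.5, against 4.61, 4.76, 3.82 and 2.27 at GD4.5. On CON arrays Birc5 stood at 5.59, 5.59, 5.14 and 5.56 at GD5.5, against 3.52, 4.42, 3.42 and 4.23 at GD4.5. Birc5 likewise had no overlap, with rises of 1.51 in GEN uteri and 1.57 in CON uteri. Bub1 is a kinase of the spindle checkpoint. Bub1 on the GEN arrays stood at 1.16, 1.02, 0.63 and 1.22 at GD5.5, against 0.42, 0.45, -0.53 and -1.91 at GD4.5. CON uteri had Bub1 signals of 1.19, 1.10, 0.83 and 1.21 at GD5.5, against -0.76, 0.07, -1.04 and -0.13 at GD4.5. It rose by 1.40 in GEN uteri (adjusted p = 0.0164) and 1.55 in CON uteri (adjusted p = 0.0052). In each of these genes GD4.5 GEN replicate 4 was the lowest array of its group, as it was for all 16 mitosis genes.

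The proliferation marker Mki67 was called in CON uteri and not in GEN uteri. Mki67 in GEN uteri stood at 3.58, 3.79, 3.64 and 4.77 at GD5.5, against 3.5, 3.78, 3.48 and 2.11 at GD4.5. The Mki67 values of CON uteri were 4.26, 3.95, 3.89 and 4.77 at GD5.5, against 2.83, 3.09, 2.49 and 3.49 at GD4.5. In GEN uteri GD4.5 replicates 1, 2 and 3 lay close together, replicate 2 above GD5.5 replicates 1 and 3 and the other pair below all GD5.5 arrays, and replicate 4 was lower still. The difference was 0.73 in GEN uteri (95% interval 0.01 to 1.45, adjusted p = 0.13) and 1.24 in CON uteri (95% interval 0.52 to 1.96, adjusted p = 0.0089). Top2a, a topoisomerase that separates sister chromatids, was called in neither. In GEN uteri, Top2a stood at 1.33, 1.25, 0.60 and 1.49 at GD5.5, against 0.59, 1.16, 0.26 and -1.20 at GD4.5. On CON arrays Top2a stood at 1.40, 0.97, 0.98 and 1.36 at GD5.5, against -0.48, 0.71, -0.02 and 0.37 at GD4.5. Its difference was 0.96 in GEN uteri (adjusted p = 0.0798) and 1.03 in CON uteri, where the arrays did not overlap and the adjusted p was 0.05. The remaining 9 mitosis genes rose by 0.91 (Kif11, a spindle motor) to 1.36 (among them Cenpa, the centromere histone) in GEN uteri and by 1.04 (Kif11) to 1.38 (Bub1b, a checkpoint protein) in CON uteri. A second Kif11 probe that was above background on all 8 CON arrays and 7 of the 8 GEN arrays differed by 0.44 in GEN uteri and by -0.17 in CON uteri, so the Kif11 probes disagreed in CON uteri. Of the other probes above background on every array compared, 15 of 16 in GEN uteri (all but one of Cdkn1b) and 18 of 19 in CON uteri (all but that of Kif11) had the sign of the probe used. Probes not above background on every array compared had the opposite sign for Tyms in GEN uteri and for Mcm4 and Cdk6 in CON uteri. For Cdkn1b and Cenpa such probes had the opposite sign in both exposures.

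Of the 3 D cyclins Ccnd2 fell, Ccnd3 rose and Ccnd1 was not called, and Ccnd2, cyclin D2, was the 1 member that fell. Ccnd2 on the GEN arrays stood at 1.06, 1.76, 2.10 and 1.14 at GD5.5, against 2.46, 2.33, 2.33 and 2.60 at GD4.5. CON uteri had Ccnd2 signals of 0.62, 0.69, 1.32 and 1.07 at GD5.5, against 2.56, 2.55, 2.63 and 2.29 at GD4.5. All 4 GD5.5 arrays lay below all 4 GD4.5 arrays in each exposure, as for 6.04% of all genes in GEN uteri and 13% in CON uteri, and the GD4.5 arrays were close together. Ccnd2 fell by 0.92 on the log2 scale in GEN uteri (SE 0.19, adjusted p = 0.0022) and by 1.58 in CON uteri (SE 0.19, adjusted p = 3.48e-06). Its other 2 probes differed by -1.09 and -0.93 in GEN uteri and by -1.63 and -1.76 in CON uteri. Ccnd3 encodes cyclin D3. Ccnd3 in GEN uteri stood at 3.94, 3.91, 3.4 and 4.05 at GD5.5, against 3.06, 3.43, 2.76 and 2.58 at GD4.5. The Ccnd3 values of CON uteri were 4.09, 4.07, 3.67 and 3.95 at GD5.5, against 2.95, 3.39, 2.64 and 2.86 at GD4.5. It rose by 0.87 in GEN uteri (adjusted p = 0.00197), with an overlap of 1 array pair, and by 0.99 in CON uteri (adjusted p = 0.000262), without overlap.

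Ccnd1 encodes cyclin D1. In GEN uteri, Ccnd1 stood at 2.07, 2.25, 2.56 and 1.90 at GD5.5, against 2.33, 2.25, 1.89 and 2.29 at GD4.5. On CON arrays Ccnd1 stood at 2.20, 2.15, 2.17 and 2.39 at GD5.5, against 2.10, 2.28, 1.53 and 1.76 at GD4.5. The groups overlapped in both exposures, with differences of 0.00 in GEN uteri (95% interval -0.33 to 0.33) and 0.31 in CON uteri (95% interval -0.02 to 0.64), neither called. Cdk6 rose in both exposures. Cdk6 on the GEN arrays stood at 2.33, 2.49, 2.04 and 2.92 at GD5.5, against 0.90, 0.95, 0.85 and 2.63 at GD4.5. CON uteri had Cdk6 signals of 1.99, 2.11, 0.99 and 2.08 at GD5.5, against 1.26, 0.91, 0.38 and 1.11 at GD4.5. One array overlapped in each exposure: GD4.5 GEN replicate 4 was well above the other GD4.5 arrays, and GD5.5 CON replicate 3 well below the other GD5.5 arrays. Cdk6 rose by 1.11 in GEN uteri (adjusted p = 0.0141) and 0.88 in CON uteri (adjusted p = 0.0345). A second Cdk6 probe above background on all arrays differed by 0.75 in GEN uteri and 0.87 in CON uteri. Cdk4, the other kinase of the D cyclins, was not called, at 0.42 in GEN uteri and 0.44 in CON uteri.

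Among the inhibitors Cdkn1c, which encodes p57, rose in both exposures. Cdkn1c in GEN uteri stood at 3.44, 3.83, 3.03 and 4.86 at GD5.5, against 2.24, 2.24, 2.80 and 2.53 at GD4.5. The Cdkn1c values of CON uteri were 4.26, 4.56, 4.10 and 3.44 at GD5.5, against 3.12, 2.51, 3.03 and 2.67 at GD4.5. The GD5.5 arrays lay above the GD4.5 arrays in each, and the rises were 1.34 in GEN uteri (adjusted p = 0.00255) and 1.26 in CON uteri (adjusted p = 0.00179). Cdkn1a encodes p21. In GEN uteri, Cdkn1a stood at -1.01, -0.83, -0.95 and 0.03 at GD5.5, against -1.25, -1.36, -1.88 and -0.94 at GD4.5. On CON arrays Cdkn1a stood at -0.46, -0.15, -0.37 and -0.63 at GD5.5, against -1.68, -1.51, -1.45 and -1.47 at GD4.5. It rose by 1.13 in CON uteri (adjusted p = 0.00574), where the groups were apart. In GEN uteri GD5.5 replicate 4 was high and replicates 1 and 3 lay within the GD4.5 range, for a difference of 0.66 (adjusted p = 0.105). Cdkn2c stood at 1.18, 1.27, 1.48 and 1.62 at GD5.5 in GEN uteri, against 1.03, 1.31, 1.30 and 0.55 at GD4.5. In CON uteri it stood at 1.05, 1.09, 1.34 and 1.16 at GD5.5, against 0.79, 0.42, 0.69 and 0.90 at GD4.5. It rose by 0.46 in CON uteri (adjusted p = 0.0215), without overlap, and differed by 0.34 in GEN uteri, with overlap. Cdkn1b was not called, at -0.07 in GEN uteri and 0.22 in CON uteri.

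**Figure D4:**
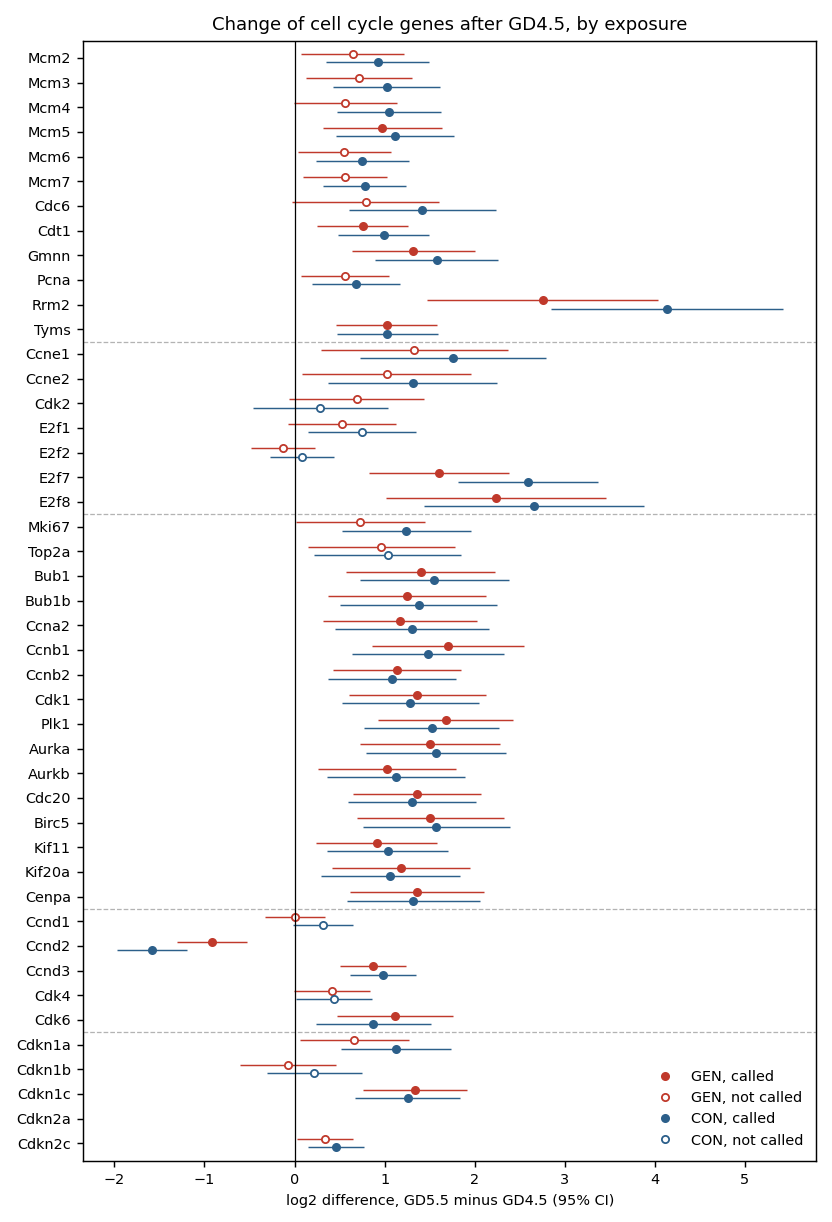
Log2 difference, GD5.5 minus GD4.5, of each member (rows, by role) with its 95% confidence interval from limma, GEN above CON within a row; filled points were called at an adjusted p under 0.05. Rrm2 and E2f8 lie farthest to the right in each exposure, and Ccnd2 is the 1 filled point below 0 in each exposure.

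Whether the change between these days differed between GEN and CON uteri was tested directly. The test called 0 of the 44 members, where 0.00443% of 22549 genes were called, and 1 member, Ccnd2, had an unadjusted p under 0.05, against 7.45% of all genes. For Ccnd2 the change in GEN uteri minus that in CON uteri was 0.67 (95% interval 0.11 to 1.22, adjusted p = 0.618). For Rrm2 it was -1.38 with an interval of -3.21 to 0.44, and for E2f7 -0.99 with an interval of -2.09 to 0.11. For Cdc6 it was -0.63, with an interval of -1.78 to 0.53 and an adjusted p of 0.828.

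The calls in GEN uteri depended on the model fitted. With only the 8 GEN arrays of these days 0 members were called, as were 0 of all genes. With all 29 arrays and slide as a fixed block 1 member, Cdkn1c, was called. GD4.5 GEN replicates 1 and 4 lay on slide 5 and GD5.5 GEN replicates 1 and 3 on slide 7. Neither of these slides carried GEN arrays of the other day. On both slides that carried GEN arrays of the 2 days 38 of the 45 members had a positive difference, and on all 4 such slides of CON arrays 39 had one. Without GD4.5 GEN replicate 4, the low array, 14 members were called, and without GD4.5 GEN replicate 2, the high array, 37; without GD5.5 GEN replicate 1 or replicate 4 there were 16. In CON uteri the count lay between 32 and 39 under the settings that kept every array and between 24 (without GD4.5 CON replicate 3) and 39 when 1 array was left out, and 20 of the 37 calls held in every setting tried, among them Rrm2, E2f7, E2f8, Ccnb1, Ccnd2, Ccnd3, Cdkn1a and Cdkn1c.

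Markers of other cells moved over the same interval. Of 6 decidual markers 5 rose and Dcn fell in each exposure, with a median difference of 3.06 in GEN uteri and 4.13 in CON uteri, while their summed signal, mostly Dcn, was 124 to 167 at GD5.5 in GEN uteri, against 147 to 194 at GD4.5, and 101 to 150 at GD5.5 in CON uteri, against 154 to 199 at GD4.5. Prl3c1 was not above background at GD4.5 in CON uteri, so its difference there is against background. Macrophage markers fell, 1 of 5 in GEN uteri and 5 of 5 in CON uteri, with summed signals of 30.1 to 85.8 at GD5.5 in GEN uteri, against 59.9 to 196 at GD4.5, and 42.6 to 82.7 at GD5.5 in CON uteri, against 89.4 to 218 at GD4.5. Of the 6 luminal markers 1 fell in GEN uteri and 3 in CON uteri, with summed signals of 49 to 71.7 at GD5.5 in GEN uteri, against 41.2 to 184 at GD4.5, and 59.1 to 82.2 at GD5.5 in CON uteri, against 92.8 to 172 at GD4.5. Of the 5 gland markers 1 fell in GEN uteri and 3 in CON uteri, with summed signals of 26 to 92.6 at GD5.5 in GEN uteri, against 1.86 to 20.8 at GD4.5, and 102 to 210 at GD5.5 in CON uteri, against 21.3 to 127 at GD4.5. The median gland sum was thus higher at GD5.5, opposite to those markers that fell. It was 70.9 against 11.6 in GEN uteri and 136 against 40.8 in CON uteri. Of the 5 embryo and trophoblast markers 1 rose in GEN uteri and 2 in CON uteri, with summed signals of 0.572 to 4.95 at GD5.5 in GEN uteri, against 0.234 to 0.471 at GD4.5, and 2.11 to 5.16 at GD5.5 in CON uteri, against 0.243 to 0.551 at GD4.5; Cdx2 was not above background in either group of GEN uteri or at GD5.5 in CON uteri. Of the 4 ovary markers Cyp11a1, the first enzyme of steroid synthesis, rose and Star fell in each exposure, and the 4 had summed signals of 1.01 to 8.64 at GD5.5 in GEN uteri, against 0.322 to 0.564 at GD4.5, and 5.98 to 9.23 at GD5.5 in CON uteri, against 0.273 to 0.534 at GD4.5. Of the 6 markers of B and plasma cells Jchain fell in both exposures and Cd79b in CON uteri, with summed signals of 1.29 to 5.59 at GD5.5 in GEN uteri, against 7.44 to 49.3 at GD4.5, and 0.524 to 1.34 at GD5.5 in CON uteri, against 1.24 to 9.19 at GD4.5. Over all 15 lists, 11 of 75 markers rose and 8 fell in GEN uteri, and 14 rose and 19 fell in CON uteri. Their part in the changes of the cycle genes was not tested.

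The other cell cycle genes of the lists were also mostly higher at GD5.5. Of 22 other replication genes, 12 rose in GEN uteri and 22 in CON uteri, and of 26 other mitosis genes 19 rose in GEN uteri and 21 in CON uteri. Of 24 other regulators, 9 rose and 3 fell in GEN uteri, and 16 rose and 3 fell in CON uteri. The largest rises were Cdc25c, the phosphatase that activates Cdk1 (1.56), and Ect2, a cytokinesis factor (1.53), in GEN uteri, and Mcm10, an initiation factor (1.99), and Ect2 (1.85) in CON uteri. The same 3 regulators fell in both exposures: the E2F family member E2f5 and Rbl2 and Rb1, pocket proteins that hold E2F factors in check. Rbl2 and Rb1 fell by 0.54 and 0.41 on the log2 scale in GEN uteri and by 0.57 and 0.60 in CON uteri.

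The third question is the change between GD1.5 and GD3.5, before implantation. The mitosis genes had higher means at GD3.5 in both exposures, but few differences passed the test. In GEN uteri 0 members were called, where 5.09% of 20395 genes were, and 7 of the 44 tested members had an unadjusted p under 0.05, against 18.6% of all genes. In CON uteri 1 member, Mki67, was called, where 2.54% of 20615 genes were, and 19 of the 44 tested had an unadjusted p under 0.05, against 14.2% of all genes. All 16 mitosis genes had a positive difference in each exposure, with a median of 0.76 in GEN uteri and 1.23 in CON uteri, where the medians of all genes tested were 0.01 and 0.02 and the shares with a positive difference 51.8% and 53.2%. For 15 of the 16 in GEN uteri and 8 of the 16 in CON uteri every GD3.5 array lay above every GD1.5 array, where that held for 15.3% and 12% of all genes.

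Mki67 stood at 2.09, 1.24 and 1.47 in GEN uteri at GD3.5, against 0.43, 1.0, 0.41 and 0.81 at GD1.5, and at 2.00, 1.11 and 1.86 in CON uteri at GD3.5, against -0.54, 0.49 and 0.47 at GD1.5. The days did not overlap in either exposure. Mki67 rose by 1.51 in CON uteri (SE 0.40, 95% interval 0.69 to 2.34, adjusted p = 0.0431), and the difference in GEN uteri was 0.94 (95% interval 0.16 to 1.71, adjusted p = 0.163). Top2a stood at -1.30, -2.10 and -1.91 in GEN uteri at GD3.5, against -2.62, -2.29, -2.38 and -2.18 at GD1.5, and at -0.61, -2.03 and -0.85 in CON uteri at GD3.5, against -3.49, -2.19 and -2.44 at GD1.5. Its differences of 0.60 in GEN uteri and 1.54 in CON uteri, again without overlap, had adjusted p-values of 0.513 and 0.0753. Ccnb1 stood at -1.85, -2.75 and -2.76 in GEN uteri at GD3.5, against -3.52, -2.79, -3.04 and -3.43 at GD1.5, and at -1.65, -2.89 and -1.89 in CON uteri at GD3.5, against -4.14, -2.83 and -2.69 at GD1.5. The difference was 0.74 in GEN uteri, without overlap, and 1.07 in CON uteri, where GD3.5 replicate 2 lay within the GD1.5 range. On all 3 slides that carried GEN arrays of both days 25 of the 45 members had a positive difference, and on the 1 such slide of CON arrays 39 had one. That slide carried only replicate 1 of each day in CON uteri, so its count sets 1 array against 1 array. GD3.5 CON replicate 1 was the highest array of its group for 11 of the 16 mitosis genes. GD3.5 CON replicate 2 was the lowest array of its group for all 16 mitosis genes, and GD1.5 CON replicate 1 was too in its own group. Without GD3.5 CON replicate 2, 5 members were called, namely Mki67, Bub1, Ccnb2, Kif11 and Top2a. The Mki67 call was lost with slide as a fixed block, with the replicate number as a block, with only the arrays compared, with normexp, without the filter on dim probes and without any 1 of the other 5 arrays, at adjusted p-values of 0.0616 to 0.230.

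The genes of replication and S phase entry were not called in either exposure over this interval. Mcm5 stood at 1.55, 1.11 and 1.12 in GEN uteri at GD3.5, against 0.94, 0.81, 0.68 and 1.34 at GD1.5, and at 1.84, 1.07 and 1.54 in CON uteri at GD3.5, against 0.89, 0.87 and 0.27 at GD1.5. The Mcm5 difference was 0.32 in GEN uteri, with overlap, and 0.81 in CON uteri, without. Ccne1 stood at 0.56, 0.23 and -0.01 in GEN uteri at GD3.5, against -0.35, -0.12, -0.03 and 0.46 at GD1.5, and at 0.91, -0.29 and 0.13 in CON uteri at GD3.5, against -0.22, 0.05 and -0.51 at GD1.5. E2f8 stood at -3.32, -3.57 and -3.86 in GEN uteri at GD3.5, against -3.63, -3.34, -3.23 and -2.93 at GD1.5, and at -2.43, -4.09 and -2.88 in CON uteri at GD3.5, against -3.96, -2.94 and -4.05 at GD1.5. For both genes the days overlapped in each exposure, with differences of 0.27 in GEN uteri and 0.47 in CON uteri for Ccne1, and -0.30 in GEN uteri and 0.52 in CON uteri for E2f8.

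D cyclins, their kinases and inhibitors were not called either. Ccnd2 stood at 2.60, 2.81 and 2.49 in GEN uteri at GD3.5, against 2.14, 2.22, 1.93 and 1.97 at GD1.5, and at 2.42, 2.14 and 2.26 in CON uteri at GD3.5, against 1.94, 1.90 and 1.40 at GD1.5. All GD3.5 arrays were above all GD1.5 arrays in both exposures, by 0.57 in GEN uteri (adjusted p = 0.115) and 0.52 in CON uteri (adjusted p = 0.247), so the sign of the Ccnd2 difference was opposite to that between GD4.5 and GD5.5. Cdk6 stood at 1.78, 2.04 and 1.67 in GEN uteri at GD3.5, against 2.26, 1.84, 1.74 and 1.79 at GD1.5, and at 1.19, 1.29 and 1.54 in CON uteri at GD3.5, against 1.84, 1.98 and 1.93 at GD1.5. In CON uteri all GD3.5 arrays were below all GD1.5 arrays, as for 11% of all genes, by -0.58 (adjusted p = 0.515), while in GEN uteri the days overlapped with a difference of -0.08. Ccnd3 stood at 2.09, 2.30 and 2.01 in GEN uteri at GD3.5, against 2.31, 2.06, 2.21 and 2.05 at GD1.5, and at 2.38, 2.03 and 1.92 in CON uteri at GD3.5, against 2.10, 1.90 and 2.17 at GD1.5. Ccnd1 stood at 1.15, 1.33 and 1.53 in GEN uteri at GD3.5, against 1.35, 1.31, 1.44 and 1.35 at GD1.5, and at 0.96, 1.11 and 1.45 in CON uteri at GD3.5, against 1.14, 1.38 and 1.63 at GD1.5. Neither of these cyclins separated the days, with differences of -0.02 in GEN uteri and 0.05 in CON uteri for Ccnd3 and -0.02 in GEN uteri and -0.21 in CON uteri for Ccnd1.

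Cdkn1a stood at -1.15, -1.20 and -1.33 in GEN uteri at GD3.5, against -0.42, 0.20, -1.04 and -1.36 at GD1.5, and at -1.45, -1.24 and -1.44 in CON uteri at GD3.5, against -1.49, -0.09 and -0.39 at GD1.5. GD1.5 values were widely spread in both exposures, and the differences were -0.57 in GEN uteri and -0.72 in CON uteri. Cdkn1c stood at 3.19, 3.13 and 3.00 in GEN uteri at GD3.5, against 2.44, 3.07, 3.11 and 2.46 at GD1.5, and at 3.07, 3.20 and 2.94 in CON uteri at GD3.5, against 3.11, 2.80 and 2.75 at GD1.5. Its differences of 0.34 in GEN uteri and 0.18 in CON uteri came with overlap in each. Cdkn2c stood at 0.57, 0.69 and 0.92 in GEN uteri at GD3.5, against 0.97, 1.03, 1.05 and 1.21 at GD1.5, and at 1.30, 0.91 and 1.10 in CON uteri at GD3.5, against 0.86, 1.18 and 1.02 at GD1.5. In GEN uteri all GD3.5 arrays were below all GD1.5 arrays, as for 13.1% of all genes, by -0.34 (adjusted p = 0.254), and in CON uteri the difference was 0.08. Of the other cell cycle genes, Myc, a growth-promoting transcription factor, rose by 0.98 and Cdkn2b, which encodes the inhibitor p15, fell by 1.26 on the log2 scale in GEN uteri, and none was called in CON uteri.

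The change over this interval differed between exposures for 0 members, where 0% of 21063 genes were called and 2.42% had an unadjusted p under 0.05, and 0 members did. The median over the members of the change in GEN uteri minus that in CON uteri was -0.32, and lay between -0.59 and -0.14 when 1 array was left out. Markers of natural killer cells rose over this interval, 3 of 5 in each exposure. Their summed signals were 6.2 to 7.28 at GD3.5 in GEN uteri, against 0.974 to 2.47 at GD1.5, and 4.75 to 6.48 at GD3.5 in CON uteri, against 1.35 to 1.59 at GD1.5. The summed signals of neutrophil markers, of which none was called, were 7.91 to 35.1 at GD3.5 in GEN uteri, against 124 to 263 at GD1.5, and 2.82 to 20 at GD3.5 in CON uteri, against 116 to 172 at GD1.5. Their part in the members' differences was not tested.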

How the data were processed

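Total RNA (500 ng) of each uterus sample was labelled with Cy3 and hybridised to an Agilent 4x44K mouse array, per the labels' protocols. The deposited scanner files came from Agilent Feature Extraction 9.5, per the submitters' processing notes. Their processed signal is an intensity: per the file headers, the spot signal less a fitted background surface, divided by a multiplicative detrending factor. From it, log2 of the deposited intensity minus log2 of the 75th percentile of the array was computed; outlier spots were left out, spots of a probe averaged, and the brightest probe taken per gene by its mean over 29 arrays. Of 41174 probes, 22951 were named by accession, 6659 by symbol and 3109 by synonym through RefSeq, and 8455 kept the name of the file.

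A group-means model on all 29 arrays (limma 3.58.1 in R 4.3.3) gave 10 contrasts, adjusted by Benjamini-Hochberg over the genes that 3 or more of the compared arrays detected well above background, and called at 0.05. It was tried on simulated arrays whose noise was independent between genes and, for each gene, of the same size in all groups. The real spread lay partly in whole arrays and differed between groups, so that trial does not check the model under those conditions. Arrays have no read depth, so their number limits the precision. The members, roles and gene lists were chosen with earlier results of these data known. Values in every array are given for the called members with the largest difference (up to 3 each way per role) and for 12 members whatever they showed: Mki67, Top2a, Ccnb1, Ccne1, E2f8, Mcm5, Ccnd1, Ccnd2, Ccnd3, Cdk6, Cdkn1a and Cdkn1c. Of the other cell cycle genes, up to 2 called each way are named per comparison.

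Replicate numbers of the labels were checked over 16272 genes. At GD5.5 the deviations of all 4 same-numbered GEN and CON arrays correlated (r 0.33 to 0.43), and 3 of those 4 pairs shared a slide. At GD1.5, GD3.5 and GD4.5 the r of same-numbered arrays was -0.26 to -0.02, -0.07 to -0.02 and -0.10 to 0.49. Arrays of unlike number reached 0.32, 0.22 and 0.51 on those days. No pairing by number was seen there, though so few pairs cannot exclude it. Alternatives were normexp, quantile and 50th percentile scaling, other filters, the mean over probes, slide and replicate blocks, only the arrays compared, a trended robust fit and leaving out each array. A fit of 1 day with the replicate block was chosen after seeing the data.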

Additional observations from a re-analysis of the deposited data

Results flagged for a closer look

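A sample was singled out where its gap to the nearest of the others was large for the range of a group of 4 arrays (Dixon's 95% criterion); this was tried in 140 groups of values, chance alone gives about 1 in 20, and there were 10. All values are log2 signals relative to the 75th percentile, or, for a role, the median distance of its genes from their own means. At GD5.5, GEN replicate 3 stood below the others for Cdc6 (-0.90) and Plk1 (3.80). At GD5.5, CON replicate 3 stood below the others for E2f8 (0.88), Birc5 (5.14), Cdk6 (0.99) and the median of the mitosis genes (1.84). GD4.5 GEN replicate 4 stood above the others for Cdk6 (2.63), and GD4.5 GEN replicate 3 below them for the median of the D cyclins and their kinases (0.13). GD1.5 GEN replicate 1 stood below the others for Plk1 (-0.37), and GD1.5 GEN replicate 4 above them for the median of all members (-0.98). No member's change between days differed between exposures by the test of that difference.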

How the results depend on the processing

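No called difference changed sign under any setting tried; some uncalled ones did, and so did the medians of the members between GEN and CON at GD3.5, GD4.5 and GD5.5 when 1 array was left out. The median difference of the GEN effect between GD4.5 and GD5.5, -0.14, lay between -0.49 and 0.056 when 1 array was left out, above 0 without GD4.5 GEN replicate 1 or 2. Between GEN and CON, 0 members were called on every day under every setting tried, leaving out each array included, except that at GD5.5 normexp called 2, Ccnd2 and Cdk2; normexp moved the median of all genes there by 0.28 and called 9821 of them. With the replicate number as a block, over all arrays or over the day alone, 0 members were called on each day. Between GD1.5 and GD3.5 in CON uteri 0 members were called with normexp, without the filter on dim probes, with slide as a fixed block, with the replicate block and with only the arrays compared, and 2 with only probes above background on all arrays, with slide as a random block and with the trended robust fit; leaving out each array gave 0 to 5. In GEN uteri only the arrays compared gave 4 over that interval (Aurkb, Bub1, Ccnd2 and Kif11). Between GD4.5 and GD5.5 leaving out each array gave 24 to 39 calls in CON uteri and 14 to 37 in GEN uteri, and in GEN uteri slide as a fixed block gave 1 and only the arrays compared 0. With the replicate block 23 members were called in GEN uteri over that interval, and, the lost Mki67 call aside, the block moved no count of calls past 1.5 times. Normexp also moved the median of all genes by 0.27 between these days in GEN uteri and by 0.13 between GD1.5 and GD3.5 in CON uteri. Over all genes, the 20, 26 and 26 calls between GEN and CON at GD1.5, GD3.5 and GD4.5 ranged over all settings to 0 at the lowest and to 39, 39 and 88 at the highest, and the 0 at GD5.5, normexp aside, to 263. The 1039 calls between GD1.5 and GD3.5 in GEN uteri ranged between 356 and 1655 and the 523 in CON uteri between 121 and 580; the 4692 between GD4.5 and GD5.5 in GEN uteri ranged between 0 and 11817 (normexp) and the 6706 in CON uteri between 4561 and 7500. Leaving out an array or fitting only those compared also used fewer arrays, and the cause of these changes in the counts was not tested. Signal over background limits Cdkn2a, and 3 or 4 arrays a group limit every interval.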
